A study of Rattus norvegicus with 24 samples.

Results

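The genes described here are 7 that mark the Leydig cells of the testis and their steroid pathway: Scarb1, Star, Cyp11a1, Cyp17a1, Hsd17b3, Insl3 and Lhcgr. All probe sets that the platform annotation pairs with exactly 1 symbol were taken, which gave 10 probe sets for the 7 genes. Star, Lhcgr and Scarb1 had 2 probe sets each and the other 4 genes had 1. They are 10 of 20826 probe sets with 1 symbol, which stand for 14217 genes, and 10 of the 31042 probe sets tested.

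The study hybridized RNA of testicular germ cells from Brown Norway rats to Affymetrix arrays, 24 in all, and its labels name no transgene or drug. The 4 groups, of 6 arrays each, were pachytene spermatocytes and round spermatids of young rats (4 months) and of aged rats (18 months). By the numbers in the labels, the same 12 rats gave both fractions, and a number that occurs at both ages stands for different animals. Testes were digested with collagenase and trypsin and the cells were separated by sedimentation in a STAPUT gradient, for which the labels give a purity above 83%, so each fraction can hold other cells of the testis.

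Leydig cells lie between the seminiferous tubules and make testosterone from cholesterol when luteinizing hormone binds its receptor. Cholesterol is taken up, carried into the mitochondrion and converted by a chain of enzymes, while the same cells secrete the peptide hormone Insl3. Germ cells lie inside the tubules, between Sertoli cells, and are not regarded as a site of this steroid chain.

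Promoter sequences show where these genes share letters that the choice of members did not use. The RefSeq promoter table (assembly GRCr8, 250 bases before each start site and 50 bases after it) held 4 of the 7 genes: Cyp11a1, Insl3, Lhcgr and Hsd17b3. The bases before the start site are printed for Cyp11a1, an enzyme gene, for Insl3, the hormone gene, and for Lhcgr, the receptor gene, because their probe sets read near, above and below the floor of the arrays. All 3 lie on the + strand, at chr8:67318415-67318664 (Cyp11a1), chr16:18432939-18433188 (Insl3) and chr6:11415165-11415414 (Lhcgr), and capitals mark AGGTCA or its reverse, TGACCT, the core letters of sites for many nuclear receptors. The table's start site lies after the first annotated base of the RefSeq gene for Insl3 (18432668), so its window is inside that gene, and for Lhcgr (11415361), so its window overlaps the gene's first bases.
Cyp11a1: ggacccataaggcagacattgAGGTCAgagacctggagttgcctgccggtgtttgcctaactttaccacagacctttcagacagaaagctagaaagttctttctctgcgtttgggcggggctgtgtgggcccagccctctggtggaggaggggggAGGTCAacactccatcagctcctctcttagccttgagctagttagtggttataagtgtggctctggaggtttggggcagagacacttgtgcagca
Insl3: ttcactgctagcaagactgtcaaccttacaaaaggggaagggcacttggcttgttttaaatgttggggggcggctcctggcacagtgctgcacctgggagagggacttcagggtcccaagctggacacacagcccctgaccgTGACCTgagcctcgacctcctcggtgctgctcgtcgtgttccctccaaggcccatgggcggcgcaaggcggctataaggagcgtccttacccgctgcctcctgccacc
Lhcgr: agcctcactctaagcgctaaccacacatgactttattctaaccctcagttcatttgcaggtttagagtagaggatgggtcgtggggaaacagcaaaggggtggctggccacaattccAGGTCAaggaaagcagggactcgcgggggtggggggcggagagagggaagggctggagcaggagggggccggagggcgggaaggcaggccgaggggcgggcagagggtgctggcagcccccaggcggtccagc
AGGTCA was chosen after the sequences were seen. On either strand it occurred in 4 of 4 members' promoters and in 5415 of 33469 promoters of the same length in the table (16.2%). Counted from the start site, it began at -229 and -95 in Cyp11a1, at -108 in Insl3, at -133 in Lhcgr and at 17, after the start, in Hsd17b3. CAAGGTC, a longer core of the site for Nr5a1, the orphan receptor that governs steroid cell genes, overlaps AGGTCA in its last letters and was in 0 of the 4 on either strand, against 1406 of 33469 (4.2%). No match says only that these letters are not in this window.

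Germ cell lists checked the labels by level rather than by presence. All 11 genes of a round spermatid list, such as the protamine gene Prm1, were above the floor defined below in all 4 groups, and of 10 measured genes of a meiosis list 10 were above it in both pachytene groups, 8 in young and 10 in aged round spermatids. The mean level of the meiosis list ran from 12.18 to 12.46 over the pachytene arrays and from 10.42 to 11.19 over the round spermatid arrays, and that of the round spermatid list from 12.39 to 14.00 and from 14.07 to 14.36 (deposited log2 signal). Round spermatid transcripts were thus high in the pachytene fractions too. Array medians on the deposited log2 scale ran from 6.62 to 7.38 in the pachytene fractions and from 7.56 to 7.86 in the round spermatid fractions. A control for a transcript that rats lack (3 probe sets) averaged 4.38 and 4.19 in young and aged pachytene arrays and 6.77 and 6.90 in young and aged round spermatid arrays. Low signals were therefore higher on the round spermatid arrays, and for dim signals the cell type and the array background cannot be told apart. The young pachytene array of rat 1 stood apart, with a median correlation of 0.977 with its group across probe sets, against 0.988 to 0.992 for the other 5. The young round spermatid array of rat 10 had a median correlation of 0.986, against 0.993 to 0.996 for the other 5.

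To say which members stood above background, a floor was taken from 41 genes of other organs, such as liver, pituitary and eye, with 52 probe sets. The floor of a group was the 90th percentile of their mean levels, which was 7.65 in young and 7.43 in aged pachytene spermatocytes and 8.40 in young and 8.45 in aged round spermatids (deposited log2 signal). Above it lay 5 of the 10 member probe sets in young pachytene spermatocytes, where 42.7% of all probe sets did, and 2 of 10 in aged pachytene spermatocytes, where 39.9% did. In young round spermatids 1 of 10 lay above it, against 27.2% of all probe sets, and in aged round spermatids 2 of 10, against 29.0%. The members above the floor were Cyp17a1 and Insl3 in most groups, with Cyp11a1, Star and Scarb1 just above it in young pachytene spermatocytes. The total of 10 of 40 depends on where the floor is set: it was 18 with the 75th percentile of the same genes and 3 with the brightest of them, the pituitary hormone gene Lhb. Lhb lay far above the 90th percentile in round spermatids, at 10.76 in young and 10.98 in aged rats. In pachytene spermatocytes it was at 9.20 and 8.24, so the count of 3 comes from a very strict floor.

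**Figure D1:**
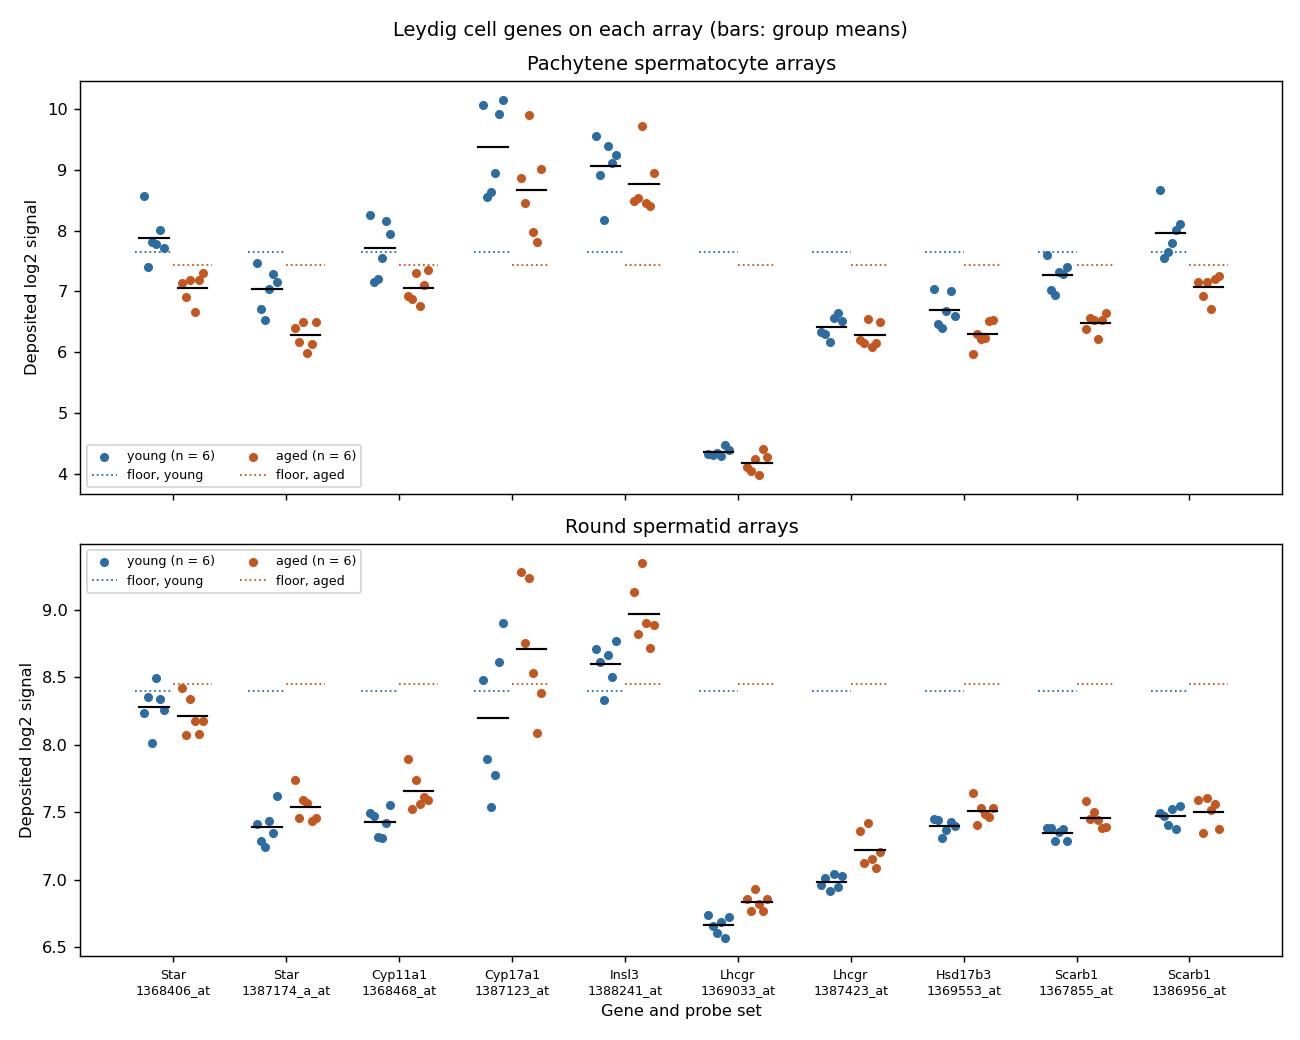
Deposited log2 signal of the 10 member probe sets on each of the 24 arrays, pachytene spermatocytes above and round spermatids below, with points for arrays, black bars for means of 6 rats and dotted lines for the floor of each age. Cyp17a1 and Insl3 are above the floor on all 12 pachytene arrays, while both Lhcgr probe sets and Hsd17b3 are below it on all 24 arrays. Signals of different probe sets are not on one scale.

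Scarb1 is the receptor through which steroid cells take up cholesterol from high density lipoprotein, and it is also known in Sertoli cells. The deposited log2 signal of its probe set 1386956_at had a low of 7.55, a median of 7.90 and a high of 8.66 in young pachytene spermatocytes, and 6.71, 7.15 and 7.26 in aged ones. In round spermatids it was 7.37, 7.48 and 7.55 in young and 7.35, 7.54 and 7.61 in aged rats. It passed the floor on 4 of 6 young pachytene arrays, with rat 1 highest, and on none of the arrays of the other 3 groups. The second probe set, 1367855_at, lay at the floor in all groups, with means of 7.26 ± 0.25 and 6.48 ± 0.16 in pachytene spermatocytes of young and aged rats and 7.34 ± 0.05 and 7.46 ± 0.07 in their round spermatids (SD, n = 6).

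Star carries cholesterol to the inner mitochondrial membrane, the step that limits the rate of steroid synthesis. Its probe set 1368406_at had a low of 7.41, a median of 7.79 and a high of 8.58 in young pachytene spermatocytes and 6.66, 7.16 and 7.30 in aged ones, on the deposited log2 scale. It read 8.02, 8.30 and 8.49 in young and 8.07, 8.18 and 8.42 in aged round spermatids. Rat 1 was highest among the young pachytene arrays, 5 of which passed the floor, and no aged pachytene array did. The other probe set, 1387174_a_at, stayed at the floor on all 24 arrays, with medians of 7.10 and 6.28 in pachytene spermatocytes of young and aged rats and 7.38 and 7.52 in their round spermatids.

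Cyp11a1 cleaves the side chain of cholesterol and so commits it to the steroid path. Its deposited log2 signal had a low of 7.15, a median of 7.75 and a high of 8.26 in young pachytene spermatocytes and 6.77, 7.02 and 7.35 in aged ones. It read 7.31, 7.45 and 7.55 in young and 7.52, 7.60 and 7.90 in aged round spermatids. Only 3 arrays of the 24, all from young pachytene fractions, passed the floor of their group.

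Cyp17a1, which turns progestins into androgens, varied most from rat to rat. Its deposited log2 signal had a low of 8.56, a median of 9.44 and a high of 10.15 in young pachytene spermatocytes, and a low of 7.82, a median of 8.66 and a high of 9.90 in aged ones. In round spermatids it was 7.54, 8.19 and 8.90 in young rats and 8.09, 8.65 and 9.28 in aged rats. Rat 13 was highest in both fractions of the young group, aged rat 5 was highest in the aged pachytene fractions and aged rat 9 was lowest in both aged fractions. All 12 pachytene arrays were above the floor, as were 3 of 6 young and 4 of 6 aged round spermatid arrays. The highest and lowest aged pachytene arrays differed 4.23-fold. On the normalized log2 scale the SD over aged pachytene arrays was 0.76, against a median SD of 0.10 over all probe sets.

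Hsd17b3 makes testosterone from androstenedione, the last step in the testis. It was at the floor on all 24 arrays, with deposited log2 means of 6.70 ± 0.27 in young and 6.29 ± 0.21 in aged pachytene spermatocytes (SD, n = 6). In round spermatids the means were 7.40 ± 0.05 in young and 7.51 ± 0.08 in aged rats.

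Insl3 is the peptide hormone of mature Leydig cells and acts on the descent of the testis. Its deposited log2 signal had a low of 8.17, a median of 9.18 and a high of 9.55 in young pachytene spermatocytes and 8.41, 8.51 and 9.73 in aged ones. In round spermatids the values were 8.33, 8.64 and 8.77 in young rats and 8.72, 8.90 and 9.35 in aged rats. Young rat 3 was lowest in both of its fractions and aged rat 5 was highest in both of its fractions. Insl3 was above the floor in all 4 groups, on 23 of 24 arrays.

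Lhcgr is the receptor for luteinizing hormone, through which the pituitary drives the whole chain. Probe set 1369033_at averaged 4.35 ± 0.06 and 4.17 ± 0.16 in pachytene spermatocytes of young and aged rats and 6.66 ± 0.07 and 6.83 ± 0.06 in their round spermatids (deposited log2 signal, SD, n = 6). These levels are near those of the control for an absent transcript. Probe set 1387423_at averaged 6.42 ± 0.18 and 6.27 ± 0.20 in the pachytene groups and 6.98 ± 0.05 and 7.22 ± 0.14 in the round spermatid groups. Both were at the floor on all 24 arrays.

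The defining transcripts thus split. Those of the hormone Insl3 and of the enzyme Cyp17a1 passed the floor in most fractions, and those of the receptor Lhcgr and of the enzyme Hsd17b3 passed it in none. A probe set at the floor gives only a bound, since probe sets differ in how strongly they respond. Of 14 other Leydig cell markers measured, 6 were above the floor in young pachytene spermatocytes (Hsd3b1, Hsd11b1, Nr5a1, Gramd1b, Igf1 and Csf1), and 6 in aged ones, where Nr2f2 took the place of Nr5a1. In young round spermatids 3 were above it (Gramd1b, Igf1 and Csf1), and in aged ones these and Hsd11b1. Of all probe sets 42.7%, 39.9%, 27.2% and 29.0% were above the floor in these 4 groups, so the counts are near these shares. The counts take the brightest probe set of each gene, while the shares cover every probe set, so the comparison is a rough one. Hsd3b1, the enzyme between Cyp11a1 and Cyp17a1, had deposited log2 means of 8.14 ± 0.52 in young and 7.59 ± 0.40 in aged pachytene spermatocytes (SD, n = 6), with rat 1 and rat 5 highest. Several of these markers, such as Gramd1b, Igf1 and Csf1, are known in other cells too. No array of Leydig cells is among the samples, so the signals cannot be turned into a share of cells, and the part of interstitial cells carried over in these levels was not tested. Fewer cells of a type and less RNA per cell cannot be told apart in such fractions.

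Markers of other cells of the testis, each by its brightest probe set, were read against the same shares of all probe sets. Of 13 Sertoli markers 10 were above the floor in each pachytene group and 5 in each round spermatid group. The mean level of that list ran from 10.25 to 11.12 over young and from 9.22 to 9.73 over aged pachytene arrays (deposited log2), and from 8.38 to 8.74 and from 8.05 to 8.52 over young and aged round spermatid arrays. Of 13 macrophage markers, the other main interstitial type, 4 and 3 were above the floor in the young and the aged pachytene group and 5 and 6 in the round spermatid groups. Of 8 peritubular markers 3 were above it in each pachytene group and 4 and 5 in the round spermatid groups. Of 6 endothelial and blood markers 2, 3, 0 and 1 were above it in these 4 groups, in the same order. Against those shares the Sertoli count was high in the pachytene groups, and macrophage, peritubular and endothelial counts in the pachytene groups were near or below them. In the round spermatid groups the macrophage, peritubular and Sertoli counts were above the shares of all probe sets (27.2% and 29.0%), though the lists are short. The endothelial and blood counts there were below them. The macrophage list was split. Aif1 and Adgre1 had its highest levels in young round spermatids (13.59 and 10.80, deposited log2). Cd68, Cd163, Csf1r, Ptprc, C1qb, Cd14 and Itgam were at the floor in all 4 groups. The source of these signals was not tested.

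Age was compared first in pachytene spermatocytes, on values quantile normalized within the cell type. Scarb1 and Star were lower in aged rats by both of their probe sets, by about 0.4 to 0.5 log2 units, and no member was called higher on this scale. After median centring Lhcgr 1369033_at was higher, by 0.20 (limma adjusted p = 0.0403), at levels near those of the control for an absent transcript. With limma and Benjamini-Hochberg adjustment over 31042 probe sets, 4 of 10 member probe sets were past an adjusted p of 0.05, all lower in aged rats, where 37.5% of all probe sets were (22.1% higher and 15.4% lower). The median difference over the 7 members by their brightest probe sets was -0.25, against a median of 0.05 over all probe sets.

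The normalized log2 signal of Scarb1 1367855_at ran from 6.90 to 7.29 in young and from 6.49 to 6.75 in aged pachytene spermatocytes, so the ages did not overlap. It fell by 0.41 (SE 0.08, limma adjusted p = 0.00201), while 8.08% of all probe sets had every aged array below every young one. The Scarb1 probe set 1386956_at fell by 0.48 (SE 0.12, limma adjusted p = 0.00991), with 5 of 6 aged arrays below all young arrays. Star 1368406_at fell by 0.41 (SE 0.13, limma adjusted p = 0.0222) and Star 1387174_a_at by 0.39 (SE 0.12, limma adjusted p = 0.0261), each with 3 of 6 aged arrays below all young arrays and the rest within the young range. In aged pachytene spermatocytes all 4 probe sets were at the floor. Scarb1 1367855_at and Star 1387174_a_at were at the floor on every young pachytene array too, so their falls lie between floor-level signals.

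Neither Star call held without young rats 1, 10 and 11 (limma adjusted p = 0.128 for 1368406_at and 0.213 for 1387174_a_at) or without aged rat 8 (0.0512 and 0.0597). The call of 1387174_a_at was also lost when young rat 10, 11 or 13 or aged rat 3 or 9 was left out (limma adjusted p from 0.0509 to 0.0593) and with array weights (0.0718). Both Scarb1 calls held when any single rat was left out. Beside these falls, 11 of 13 Sertoli markers were lower in aged pachytene spermatocytes and 0 higher, with a median difference of -0.99, as were 9 of 11 round spermatid markers (median -0.72). The part of these cells in the falls of Scarb1 and Star was not tested.

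The 2 members with the clearest signal were not called. Cyp17a1 differed by -0.37 between ages in pachytene spermatocytes (SE 0.38, limma adjusted p = 0.459), with a 95% interval from -1.18 to 0.44 that reflects the spread between rats. Insl3 differed by 0.06 (SE 0.24, limma adjusted p = 0.868, 95% interval from -0.45 to 0.57), and by -0.30 on the deposited scale. The ages overlapped in both genes: aged rat 5 lay above all young rats in each, and 2 aged rats lay below all young rats in Cyp17a1. Cyp11a1 differed by -0.25 (SE 0.15, adjusted p = 0.212), Hsd17b3 by -0.06 (SE 0.07, 0.566) and the Lhcgr probe sets by 0.03 and 0.20 (SE 0.06 and 0.10, 0.699 and 0.114), all by limma. On the deposited scale Cyp11a1 and Hsd17b3 were called lower, by -0.66 and -0.41 (limma adjusted p = 0.0117 and 0.0164), and with hybridization controls Cyp11a1 was, by -0.54 (0.0268). After quantile normalization the off-tissue genes had a median difference of 0.10, with 14 of 41 called higher and 0 lower.

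The scale matters for the direction of all probe sets together. The median difference of all probe sets in pachytene spermatocytes was 0.05 after quantile normalization, -0.24 on the deposited scale, 0.13 after median centring and -0.12 after centring on hybridization controls. The calls split into 6858 higher and 4773 lower after quantile normalization, 1352 and 17801 on the deposited scale, 10625 and 4161 after median centring and 2256 and 7903 with hybridization controls. The falls of Scarb1 and Star kept their sign and their call on each of these 4 scales.

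In round spermatids only 1 of 10 member probe sets was past the threshold, where 17.1% of all probe sets were (8.65% higher and 8.48% lower). This was Scarb1 1386956_at, whose normalized log2 signal ran from 7.47 to 7.59 in young and from 7.34 to 7.52 in aged rats, with 5 of 6 aged arrays below all young arrays. It fell by 0.11 (SE 0.03, limma adjusted p = 0.0446), but differed by 0.03 on the deposited scale and by 0.07 with hybridization controls. The call was lost after median centring (limma adjusted p = 0.0648) and on leaving out any of 9 of the 12 rats (from 0.0530 to 0.102). Star 1368406_at differed by -0.23 (SE 0.08, limma adjusted p = 0.0559) and was past the threshold when young rat 3 or aged rat 2 was left out (adjusted p = 0.00991 and 0.0453), without the 40% dimmest probe sets (0.0435), with eBayes trend and robust (0.0490) and with array weights (0.0209).

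Cyp17a1 and Insl3 had positive estimates in aged round spermatids that missed the threshold after quantile normalization. Cyp17a1 differed by 0.34 (SE 0.25, limma adjusted p = 0.396, 95% interval from -0.19 to 0.88) and Insl3 by 0.17 (SE 0.09, limma adjusted p = 0.252, 95% interval from -0.03 to 0.37), with 2 of 6 aged arrays above all young ones in each. On other scales they passed: Insl3 differed by 0.37 with no normalization beyond the deposited values and by 0.41 after centring on hybridization controls (limma adjusted p = 0.0107 and 0.00241), and Cyp17a1 by 0.55 with hybridization controls (0.00627). Estimates for Cyp11a1 (0.09), Hsd17b3 (-0.03), Lhcgr (0.04 and 0.10), Star 1387174_a_at (0.02) and Scarb1 1367855_at (-0.02) also missed it, with limma adjusted p from 0.107 to 0.893. On the deposited scale 5 of 10 were called (Scarb1 1367855_at, Cyp11a1, Insl3 and both of Lhcgr) and with hybridization controls 4 (Cyp11a1, Cyp17a1, Insl3 and Lhcgr 1387423_at), all higher in aged rats. The calls over all probe sets split into 2685 higher and 2631 lower, but 16477 and 695 on the deposited scale and 8289 and 427 with hybridization controls, where the median of all probe sets moved from 0.00 to 0.14 and 0.18.

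**Figure D2:**
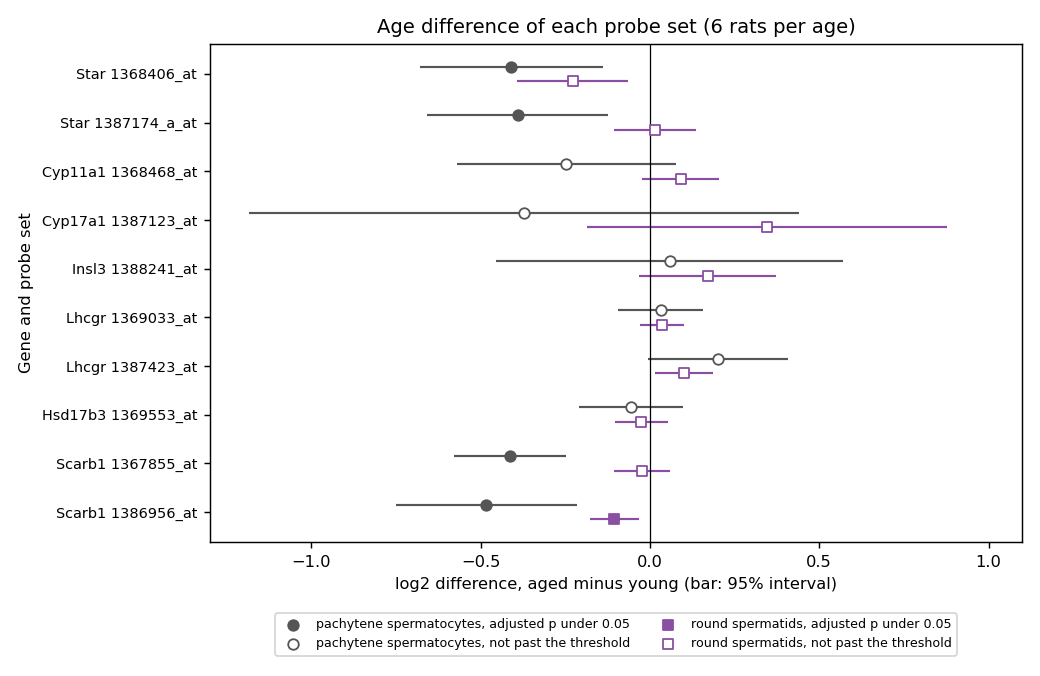
Difference of normalized log2 signal, aged minus young, for the 10 member probe sets in pachytene spermatocytes (circles) and round spermatids (squares), from limma with 6 rats per age, with bars for 95% intervals and filled symbols for adjusted p under 0.05. Both probe sets of Scarb1 and of Star are lower in aged pachytene spermatocytes, and Scarb1 1386956_at is lower in aged round spermatids, though not on the deposited scale or with hybridization controls. Cyp17a1 and Insl3 have wide intervals across 0.

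No member's age difference was called different between the fractions after quantile normalization. In a fit over all 24 arrays 0 of 10 member probe sets were past an adjusted p of 0.05 for the difference of the age effect (limma), where 13% of all probe sets were, and 3 had an unadjusted p under 0.05. These were Scarb1 1367855_at, at 0.17 (SE 0.06, limma adjusted p = 0.0605), Cyp11a1 at 0.25 (SE 0.11, adjusted p = 0.136) and Star 1387174_a_at at 0.19 (SE 0.09, adjusted p = 0.174). In each the aged minus young difference was higher in round spermatids than in pachytene spermatocytes. With the rat as replicate block, Scarb1 1367855_at passed (1 of 10), and it also passed without young rat 11. With the offset described below but no quantile normalization, 10 of 10 passed, as did 25154 of all probe sets. Cyp17a1 had the largest estimate, 0.72 (SE 0.46, limma adjusted p = 0.322, 95% interval from -0.23 to 1.68).

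The cell types were compared after an offset of 84.5 was added to the linear pachytene values, so that control probe sets differed by -0.17 ± 0.29 between cell types (pachytene minus round, SD over 45 spike controls) in place of -0.61 ± 0.77. Of the 10 member probe sets 7 were past the threshold, 6 lower and 1 higher in round spermatids, where 85.1% of all probe sets were (46.9% higher and 38.3% lower). Scarb1 differed by -0.55 (SE 0.04) and -0.32 (SE 0.03), Cyp11a1 by -0.41 (SE 0.05), Lhcgr 1387423_at by -0.41 (SE 0.03), Star 1387174_a_at by -0.14 (SE 0.05) and Hsd17b3 by -0.09 (SE 0.03), round minus pachytene. Star 1368406_at differed by 0.48 (SE 0.06), the opposite sign from its other probe set. These are dim probe sets on arrays whose background differs and whose controls still differ between cell types, and no direction is read from them. Cyp17a1, at -0.37 (SE 0.23, limma adjusted p = 0.144), and Insl3, at 0.17 (SE 0.11, limma adjusted p = 0.156), missed the threshold. With the offset but no quantile normalization Cyp17a1 was called lower in round spermatids, by -0.81 (limma adjusted p = 0.00176). Insl3 turned its sign there and was called lower, by -0.37 (limma adjusted p = 0.00951). Hsd17b3 (0.971) and Star 1387174_a_at (0.166) were not called in that setting. Hsd17b3 also lost its call among young rats alone (0.0859) and Star 1387174_a_at among aged rats alone (0.403).

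Rats that were high in 1 member were compared with the others, as deviations from the mean of their group. Only Cyp17a1 and Insl3 were above the floor at both ages of a cell type, in pachytene spermatocytes, so 1 pair was tested. Their normalized log2 levels were related over 12 rats with age means removed (Pearson r = 0.74, permutation p = 0.00660, Spearman rho = 0.66, permutation p = 0.0235, n = 12, two-sided). With a single pair the Benjamini-Hochberg values are the same. Within the young rats r was 0.53 and within the aged rats 0.90. Without the 2 rats farthest from the median of Cyp17a1 r was 0.55, and without aged rat 5, the highest in both genes, it was 0.58 (adjusted permutation p = 0.0662, n = 11), so the relation rests in part on that rat.

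**Figure D3:**
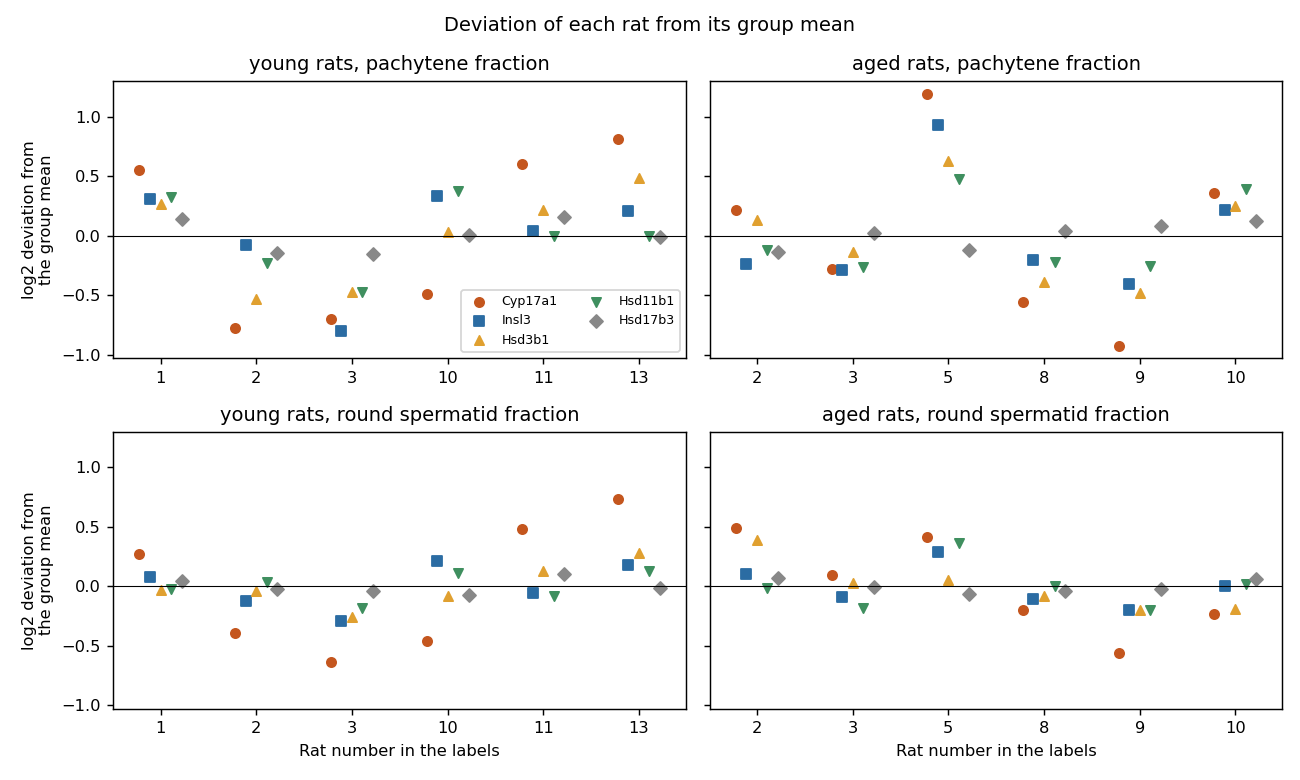
Deviation of normalized log2 signal from the group mean for Cyp17a1, Insl3, Hsd17b3 and the Leydig cell markers Hsd3b1 and Hsd11b1, for each rat (horizontal axis) in each fraction, with 1 point per array. The highest Cyp17a1 signal of the aged pachytene arrays, 10.05 in rat 5, and the lowest, 7.93 in rat 9, lie far from the group mean, while Hsd17b3, at the floor, stays close to 0.

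The levels of a rat's pachytene fraction were also set against those of its round spermatid fraction, which come from separate arrays of the same animal. This comparison was added after the values were seen, covers the brightest probe set of each of the 7 members, and uses 12 rats with age means removed. Insl3 had r = 0.87 (adjusted permutation p = 0.00269, rho = 0.82, adjusted permutation p = 0.00906, n = 12), with 0.91 within young and 0.86 within aged rats and 0.74 without the 2 farthest rats. Cyp17a1 had r = 0.85 (adjusted permutation p = 0.00838, rho = 0.81, adjusted permutation p = 0.0120, n = 12), with 0.97 within young and 0.73 within aged rats and 0.85 without the 2 farthest. Lhcgr 1387423_at, although at the floor, had r = 0.80 (adjusted permutation p = 0.00269, rho = 0.83, adjusted permutation p = 0.00906, n = 12), with 0.82 within young and 0.91 within aged rats and 0.72 without the 2 farthest. A rat with much Insl3 or Cyp17a1 signal in 1 fraction thus also had much in the other.

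Across all 31041 probe sets with varying values the same correlation had a median of 0.07 and quartiles of -0.16 and 0.30. Values above 0.8 occurred in 114 probe sets (0.367%), among them these 3 of the 10 member probe sets. Star 1387174_a_at reached 0.71, whereas Star 1368406_at had r = 0.01 (adjusted permutation p = 0.982, rho = 0.03, adjusted permutation p = 0.925, n = 12). Cyp11a1 had r = 0.55 (adjusted permutation p = 0.146, n = 12), though its rho of 0.71 passed (adjusted permutation p = 0.0420, n = 12). Hsd17b3 (r = 0.48) and Scarb1 1386956_at (r = 0.37) missed the threshold. The values for Insl3, Cyp17a1 and Lhcgr held when any single rat was left out, with r from 0.72 to 0.94. The Lhcgr relation depended on the scale. On the deposited scale its r was 0.51 and missed the threshold (adjusted permutation p = 0.271). After median centring its r was 0.80 (adjusted permutation p = 0.00548). Insl3 and Cyp17a1 still passed on the deposited scale, with r = 0.79 and 0.83 (adjusted permutation p = 0.0264 for each).

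**Figure D4:**
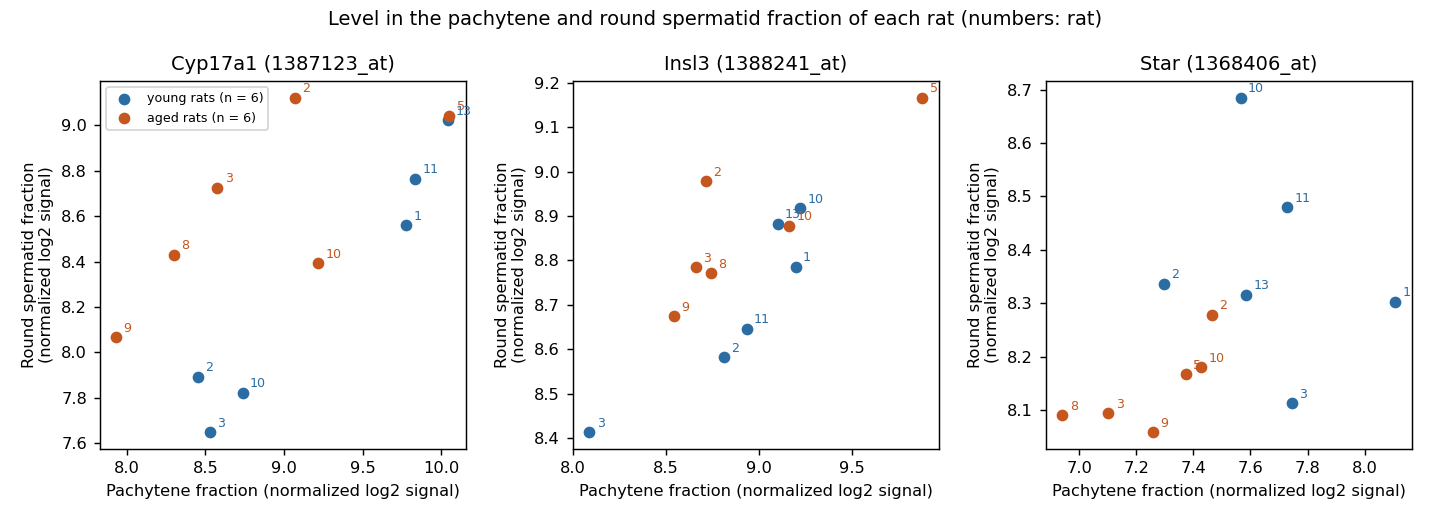
Normalized log2 signal in the pachytene fraction (horizontal axis) and the round spermatid fraction (vertical axis) of each of 12 rats, for Cyp17a1, Insl3 and Star, with 1 point per rat and its number in the labels. Signals of the pachytene and the round spermatid fraction rise together across rats within each age for Cyp17a1 (r = 0.85) and for Insl3 (r = 0.87). Star 1368406_at has r = 0.01. Each r is between the fractions of 1 gene, with age means removed.

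The genes whose pattern was most like a member's were taken over all 24 arrays with the 4 group means removed, with no test. Nearest to Cyp17a1 were the steroid enzyme Hsd3b1 (r = 0.93), the urea cycle enzyme Ass1 (0.92) and the peroxisomal oxidase Hao2 (0.83). Nearest to Insl3 were Cyp1b1 (0.91), the glucocorticoid enzyme Hsd11b1 (0.89) and the chemokine Cxcl12 (0.89). Nearest to Cyp11a1 were Ass1 (0.90), the lysosomal channel Tpcn2 (0.84) and Hsd3b1 (0.84).

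Star and Scarb1 had other neighbours. Nearest to Star 1368406_at were Serpina1 (0.88), Gcdh (0.87) and the growth factor receptor Igf1r (0.86), and nearest to Scarb1 1386956_at were Utrn (0.84), Arhgap15 (0.84) and Glmp (0.82). Among the members themselves, Cyp17a1 correlated at 0.83 with Cyp11a1, at 0.82 with Star 1387174_a_at, at 0.69 with Insl3 and at 0.44 with Star 1368406_at. The probe sets of Star thus differed: 1387174_a_at, though dimmer, varied with Cyp17a1 and Insl3 (0.65), while 1368406_at varied with Scarb1 1386956_at (0.71). Scarb1 1386956_at also correlated at 0.73 with Cyp11a1 and at 0.58 with Cyp17a1, and Star 1368406_at at 0.51 with Cyp11a1. The members therefore do not fall into separate sets by these values. These points share arrays and rats.

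The rest of the pathway was described by lists of genes, each by its brightest probe set. Of all probe sets 22.1% were called higher and 15.4% lower in aged pachytene spermatocytes. In aged round spermatids 8.65% were called higher and 8.48% lower. Of 17 other steroid enzymes and their electron donors, 5 were higher and 2 lower in aged pachytene spermatocytes, with a median of 0.08. Cyb5b, a cytochrome b5 of the outer mitochondrial membrane, rose by 0.68 (SE 0.15) and Por, the reductase that feeds electrons to microsomal P450 enzymes, by 0.39 (SE 0.09). Hsd17b12, which also elongates fatty acids, fell by 0.62 (SE 0.09), and Fdx1, the ferredoxin that supplies Cyp11a1, fell by 0.18 (SE 0.05). In aged round spermatids 3 were higher and 1 lower: Cyb5a, a helper of Cyp17a1, rose by 0.31 (SE 0.03), Hsd11b1 by 0.34 (SE 0.09) and Cyb5b by 0.21 (SE 0.05), and Fdx1 fell by 0.24 (SE 0.05).

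Of 14 genes of cholesterol supply, 3 were higher and 5 lower in aged pachytene spermatocytes, with a median of -0.14. The exporter Abca1 rose by 1.06 (SE 0.18), while the acyl-CoA binding protein gene Dbi fell by 0.99 (SE 0.15), the mitochondrial channel gene Vdac1 by 0.91 (SE 0.20) and the lysosomal cholesterol carrier gene Npc2 by 0.77 (SE 0.13). In aged round spermatids 2 were higher and 5 lower, with a median of -0.08. Abca1 rose by 0.33 (SE 0.04), and the lipase gene Lipe fell by 0.60 (SE 0.12), Dbi by 0.50 (SE 0.08) and Nceh1 by 0.23 (SE 0.04). Nceh1 was at the floor in all 4 groups.

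Of 19 genes of luteinizing hormone signalling and its regulators, 3 were higher and 7 lower in aged pachytene spermatocytes, with a median of -0.16. Gnas, the stimulatory G protein subunit, fell by 1.07 (SE 0.14), Nr0b1, a repressor of Nr5a1, by 0.88 (SE 0.16) and the protein kinase A subunit gene Prkacb by 0.61 (SE 0.10), while Prkaca rose by 0.50 (SE 0.08). Nr0b1 and other genes of this list are also known in Sertoli cells. In aged round spermatids 1 was higher and 2 lower: the phosphodiesterase gene Pde8a rose by 0.29 (SE 0.06), Gnas fell by 0.34 (SE 0.08) and Pde4a differed by -0.21 (SE 0.05), with deposited means of 9.97 in young and 10.01 in aged rats.

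Of the 14 other Leydig cell markers, 3 were higher and 2 lower in aged pachytene spermatocytes, with a median of 0.10. Nr2f2, a nuclear receptor known in stem Leydig cells, rose by 0.84 (SE 0.19) and Gramd1b by 0.45 (SE 0.09), while Nr5a1 fell by 0.55 (SE 0.12) and Prlr, the prolactin receptor gene, by 0.50 (SE 0.11). In aged round spermatids 3 were higher and 0 lower: Hsd11b1, Pdgfra by 0.38 (SE 0.12) and Vcam1 by 0.34 (SE 0.10), with a median of 0.07 for the list. Prlr, Pdgfra and Vcam1 were at the floor in all 4 groups. In the pachytene fractions the counts of this list were near the shares of all probe sets (22.1% higher and 15.4% lower), so no direction is read from them. All these list values are normalized log2 differences, aged minus young, called by limma at an adjusted p of 0.05, and genes of these lists are active in germ cells too.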

How the data were processed

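Values were used as deposited, as log2 signals of 31099 probe sets on 24 rat arrays. The authors had summarised them from the probes with a program not given in the sources used here. Biotinylated cRNA was made from 3 ug of total RNA, per the labels' protocols. Each replicate is a separate rat per the labels, and their number sets the precision. Of the probe sets, 57 controls were left out of the tests.

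Array medians spanned 0.763 (pachytene) and 0.307 (round), so values were quantile normalized within each cell type and tested for age with limma 3.58.1 in R 4.3.3 (Benjamini-Hochberg over 31042 probe sets, threshold 0.05, two-sided). Cell type and the difference of the age effect were fitted over 4 group means on all arrays, after the offset and quantile normalization of all 24. The offset brought the mean difference between cell types over 45 spike controls (of the 57 controls, without 12 of rat genes) to 0, and normalization then left -0.17. Floors used the deposited scale. Relations across rats used 100000 permutations within age, with SciPy 1.17.1.

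The rat number in the labels paired the fractions. After removal of group means, a rat's own fractions correlated at -0.07 to 0.36 over all probe sets. The fit was tested on simulated data.

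The members and lists were chosen with earlier results of these data known. Named genes were all member probe sets, up to 4 called genes of each list with the smallest p, and the 3 genes most like a member above the floor in any group, without symbols that start with LOC, RGD or MGC. Alternatives were the scale, array weights, a filter on dim probe sets, trend and robust options of eBayes, blocks, other floors, and leaving out rats.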

Additional observations from a re-analysis of the deposited data

Results flagged for a closer look

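In 40 sets of 6 arrays (10 member probe sets in 4 groups), 2 held an array far from the others by Dixon's criterion, and chance alone gives about 1 in 20. In young pachytene spermatocytes, Insl3 1388241_at of rat 3 was at 8.09 (normalized log2), with a gap to the nearest other rat of 0.637 of the group's range. In aged round spermatids, Cyp11a1 1368468_at of rat 2 was at 7.76 (normalized log2), above the other 5, with a gap of 0.63 of the range.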

How the results depend on the processing

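Counts of member probe sets called for age in pachytene spermatocytes went from 4 to 2 without young rats 1, 10 and 11 (7656 of all probe sets, against 11631) and were 2 to 4 when 1 rat was left out (8943 to 12547 of all), while the deposited scale gave 6, with Cyp11a1 and Hsd17b3 added (19153 of all), median centring and hybridization controls gave 5 each and array weights gave 3. In round spermatids the member count of 1 became 5 on the deposited scale (17172 of all, against 5316), 0 after median centring, 4 with hybridization controls (8716), 2 with eBayes trend and robust, 2 with array weights and 0 without the 3 rats (1716), a setting chosen after seeing the data, and was 0 to 2 when 1 rat was left out (3609 to 6550). For the difference of the age effect the 0 became 10 with the offset but no quantile normalization (25154 of all, against 4039), and leaving out 1 rat gave 0 to 1 (2285 to 4822). For the cell types, the 7 became 8 with the offset but no quantile normalization and 6 in the rats of either age alone, and leaving out 1 rat gave 7 to 8 (26050 to 26296). Probe sets above the floor went from 10 to 18 (75th percentile), 3 (brightest off-tissue probe set) and 17 (median of all probe sets), and were 9 to 10 when 1 rat was left out. When 1 rat was left out, tested relations past the threshold were 0 to 1 among members and 3 to 4 between fractions. On the deposited scale only Cyp17a1 and Insl3 passed between fractions, and Lhcgr did not. Calls in the pathway lists went from 28 to 37 (pachytene) and from 16 to 32 (round) of 59 genes on the deposited scale.

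Signs turned only in differences close to 0 or not called after quantile normalization, apart from Scarb1 1386956_at in round spermatids (0.030 on the deposited scale, 0.070 with hybridization controls). In pachytene spermatocytes, Insl3 became -0.30 (deposited scale) and -0.18 (hybridization controls), Lhcgr 1369033_at -0.17 and -0.056, and Lhcgr 1387423_at -0.14 and -0.026. Hsd17b3 became 0.018 with array weights and 0.047 without young rats 1, 10 and 11, where Lhcgr 1369033_at was -0.0015. In round spermatids Scarb1 1367855_at became 0.11, 0.15 and 0.013 and Hsd17b3 0.11, 0.15 and 0.00090 under the deposited scale, hybridization controls and the loss of the 3 rats. With the offset but no quantile normalization, Insl3 differed by -0.37 between cell types, and the age effect differed by 0.49 for Star 1368406_at and 0.32 for Hsd17b3. These turned differences were called (limma adjusted p = 0.00951, 0.00626 and 0.00193). When 1 rat was left out, the range crossed 0 for Insl3 in pachytene spermatocytes (-0.13 to 0.14), for Star 1387174_a_at in round spermatids (-0.017 to 0.058), and, in the difference of the age effect, for Star 1368406_at (-0.14 to 0.020) and Hsd17b3 (-0.037 to 0.0055). The cause was not tested.

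Numbers 2, 3 and 10 occur at both ages for different rats. A replicate block over these 3 shared numbers, which keeps 3 rats an age, gave 0 member calls in each cell type (367 and 0 of all probe sets), with pachytene estimates of 0.085 for Cyp11a1, 0.044 for Hsd17b3 and 0.38 for Cyp17a1, and round estimates of 0.042 for Scarb1 1367855_at and 0.062 for Hsd17b3. With the rat as replicate block for both of its fractions, the difference of the age effect gave 1 call.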
